A study of Mus musculus with 18 samples.

Results

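The proteasome genes described here were the protein-coding mouse genes whose symbols run from Psma to Psmg followed by a digit. The annotation holds 50 such symbols, of which 44 were among the 13598 genes with a value under their own number in these libraries. RNA-seq was performed on thioglycolate-elicited peritoneal macrophages of mice carrying WT TLR4, TLR4-K730R or TLR4-K810R, in which a lysine of the cytoplasmic TIR domain was replaced with arginine by CRISPR/Cas9 in C57BL/6 animals. Cells of each genotype were left as control or given LPS, the bacterial lipopolysaccharide that TLR4 senses, at 100 ng/mL. Exposure lasted 6 h, and each of the 6 groups held 3 libraries. The labels give no animal age and do not say whether the 3 libraries came from separate animals, so p-values measure the spread between these libraries, which may be technical. The question asked here was whether LPS moved the inducible subunits apart from the constitutive ones, and whether either TLR4 substitution altered that.

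The proteasome is the protease that degrades ubiquitin-tagged proteins. Its 20S core is a stack of α and β rings in which Psmb5, Psmb6 and Psmb7 carry the catalytic sites, and the 19S cap unfolds the substrates. In cells exposed to interferon, Psmb8 (LMP7), Psmb9 (LMP2) and Psmb10 (MECL-1) are built into new cores in place of Psmb5, Psmb6 and Psmb7, which gives the immunoproteasome. Psme1 and Psme2 form PA28αβ, an activator ring that docks on the core. The immunoproteasome is best known for shaping the peptides that MHC class I molecules display, and Psmb8, Psmb9, Tap1 and Tap2 lie side by side in the MHC region.

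Of the 50 symbols, 44 were listed in the files under their own gene number. Psmb5, Psma2, Psmd1 and Psmg1 were listed under the number of an overlapping gene and were placed by position, a step added after the data had been seen. Psmb11, the thymus catalytic subunit, and Psme2b, a close copy of Psme2 that could share its reads, had no listed event. Psma8, the testis α subunit, stayed at or below 1.01 FPKM (fragments per kilobase of transcript, scaled to library size) in all 18 libraries and did not pass the filter of 1 FPKM in 3 libraries. The tests below therefore covered 43 members, and values for the 4 placed genes come from a second fit that added them. One tested symbol, Psmc3ip, encodes a meiotic recombination factor that is no proteasome subunit. It was retained because the naming rule includes it, and its level did not exceed 1.65 FPKM.

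The promoter windows of the 5 inducible genes were read first, because these genes moved together after LPS. The windows come from RefSeq on GRCm38.p6 and run from 250 bases before to 50 bases after an annotated start, and 42 of the 50 symbols had one. They were searched on both strands for 4 patterns: GAAANNGAAA (the core of the interferon-stimulated response element), TTCNNNGAA (the GAS element of interferon-γ signalling), GGGNNTTTCC (an NF-κB pattern) and TGACNNNGC (the antioxidant response element, which NRF1 and NRF2 bind). No matches to different patterns overlapped in the members' windows. Psmb8, Psmb9 and Psme1 are printed as the inducible genes with a match or facing Tap1, and Psmb6 as a constitutive counterpart. Capitals mark a match.
Psmb8, chr17:34197945-34198244, plus strand: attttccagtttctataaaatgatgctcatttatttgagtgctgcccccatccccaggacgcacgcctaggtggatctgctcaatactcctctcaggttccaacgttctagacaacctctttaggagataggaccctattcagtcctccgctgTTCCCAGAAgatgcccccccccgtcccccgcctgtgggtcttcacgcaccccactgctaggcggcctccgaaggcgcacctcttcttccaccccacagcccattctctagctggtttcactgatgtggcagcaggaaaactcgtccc
Psmb9, chr17:34187281-34187580, minus strand: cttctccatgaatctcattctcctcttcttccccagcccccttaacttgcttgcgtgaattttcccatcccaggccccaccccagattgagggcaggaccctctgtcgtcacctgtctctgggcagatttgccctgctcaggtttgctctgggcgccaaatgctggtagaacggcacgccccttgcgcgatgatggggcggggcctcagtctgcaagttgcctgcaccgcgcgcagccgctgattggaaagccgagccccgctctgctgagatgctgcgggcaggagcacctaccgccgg
Psme1, chr14:55578244-55578543, plus strand: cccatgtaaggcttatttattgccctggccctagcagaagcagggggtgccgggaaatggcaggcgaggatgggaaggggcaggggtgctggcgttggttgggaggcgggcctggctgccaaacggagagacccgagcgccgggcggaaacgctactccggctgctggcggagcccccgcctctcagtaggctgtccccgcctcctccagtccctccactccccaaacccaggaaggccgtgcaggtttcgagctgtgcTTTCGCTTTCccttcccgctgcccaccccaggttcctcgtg
Psmb6, chr11:70525107-70525406, plus strand: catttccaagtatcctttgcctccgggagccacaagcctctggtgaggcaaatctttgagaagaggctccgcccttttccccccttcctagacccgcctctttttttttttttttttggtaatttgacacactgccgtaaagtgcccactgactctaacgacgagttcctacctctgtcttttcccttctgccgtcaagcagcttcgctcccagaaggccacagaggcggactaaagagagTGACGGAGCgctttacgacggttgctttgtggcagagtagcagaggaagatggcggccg

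In the Psmb8 window the capitals are a GAS match that begins 97 bases before the start. In the Psme1 window they are a response-element match on the opposite strand that begins 9 bases after the start. The Psmb9 window held none of the 4 patterns, and the RefSeq start of Tap1, which is read the other way, lies 226 bases upstream of that of Psmb9 and inside this window. The windows of Psmb10 and Psme2 held no match either. In the Psmb6 window the capitals are an antioxidant-response match that begins 9 bases before the start, and the Psmb5 window held another one. Over all 32851 windows the patterns were found in 3.44%, 8.30%, 1.63% and 12.4% in the order given. Among the 42 members they were found in 5, 3, 0 and 6, of which the inducible genes held 1, 1, 0 and 0. A match is only a run of letters, and the lack of one says only that these letters are not in these bases.

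The files place the first exons of these genes partly elsewhere. The main first exon of Psmb8 ran from chr17:34197790 to 34198545 and covers the whole RefSeq window. That of Psmb9 ended at chr17:34187764, which lies upstream of its RefSeq start on the minus strand. In Psme1 the files divided the gene between a first exon at chr14:55578123-55578248 and another at chr14:55578360-55578613.

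The labelled cell type was checked against its markers. Of 9 macrophage markers 8 had values, with a summed level of 7295 to 14810 FPKM, lower with LPS (7295 to 10062 FPKM) than in control (11658 to 14810 FPKM), and Cd14 had no row in any library of 5 of 6 groups. T cell markers summed to at most 0.958 FPKM, and B cell markers to 6.75 to 24.0 FPKM in control and 4.01 to 7.36 FPKM with LPS. The neutrophil list summed to 33.1 to 63.6 FPKM in control and 182 to 248 FPKM with LPS, with no row for Cxcr2 in 5 of 6 groups, and dendritic cell markers to at most 1.96 FPKM in control and 3.03 to 5.76 FPKM with LPS. Most of the neutrophil sum was S100a8, which alone of the 4 tested neutrophil markers was called higher, in each genotype (2.81, 2.43 and 2.17 in WT, K730R and K810R on the log2(FPKM + 1) scale, limma), while Retnlg was called lower in WT (-1.58) and the list's medians were -0.31, -0.05 and 0.21. Of the dendritic cell list only Ccr7 was tested, and it was called higher in each genotype. The part of these cells in the results for the proteasome genes was not tested, and in bulk RNA more cells of a type and more RNA per cell cannot be told apart. Mast cell markers summed to at most 5.25 FPKM and eosinophil markers to at most 2.79 FPKM. Mesothelium and fibroblast markers summed to 26.1 to 43.0 FPKM in WT control and 38.2 to 121 FPKM in WT with LPS. There 1 of 5 tested was called higher, and none in the mutants. Intestinal epithelium markers summed to 22.0 to 73.9 FPKM in K810R control and 3.85 to 9.98 FPKM in K810R with LPS. There 3 of 5 tested were called lower, with 1 in K730R and 0 in WT. Their part was not tested either. Depth is unknown because the files hold no counts.

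LPS raised all 5 inducible genes in every genotype, and in each genotype the LPS libraries lay above all control libraries. Differences are given on the log2(FPKM + 1) scale with the standard error, from limma over 9707 genes with Benjamini-Hochberg adjustment, and an adjusted p below 0.01 is called.

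Psmb8 encodes the inducible chymotrypsin-like subunit, which replaces Psmb5. In WT its level was 70.4, 64.3 and 98.5 FPKM in control and 230.3, 357 and 260.0 FPKM with LPS. In K730R it was 69.1, 76.2 and 51.1 FPKM in control and 235, 367 and 263 FPKM with LPS. In K810R it was 56.2, 64.8 and 62.6 FPKM in control and 322, 422 and 227 FPKM with LPS. The lowest of the 9 LPS libraries, at 227 FPKM, lay far above the highest control library, at 98.5 FPKM. The differences were 1.85 ± 0.24 in WT, 2.12 ± 0.24 in K730R and 2.34 ± 0.24 in K810R (adjusted p = 1.18e-05, 2.68e-06 and 1.08e-06, limma).

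Psmb9 encodes the inducible subunit that replaces the caspase-like Psmb6. It had the lowest mean level of the 3 inducible catalytic genes in every group, though not the lowest value in every library. Its level was 20.6, 19.1 and 25.6 FPKM in WT control and 62.2, 104 and 99.9 FPKM in WT with LPS. K730R libraries held 17.6, 26.9 and 24.4 FPKM in control and 106, 113 and 118 FPKM with LPS. K810R libraries held 18.4, 17.7 and 23.2 FPKM in control and 98.1, 109.8 and 66.0 FPKM with LPS. All 3 K730R libraries with LPS lay above all 3 WT libraries with LPS, as they did for 3.32% of all genes, whereas the K810R libraries overlapped them. The differences between LPS and control were 1.95 ± 0.22, 2.26 ± 0.22 and 2.13 ± 0.22 in WT, K730R and K810R (adjusted p = 2.31e-06, 4.12e-07 and 1.03e-06, limma).

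Psmb10 encodes the inducible trypsin-like subunit, which replaces Psmb7. In WT it was 63.6, 55.1 and 71.9 FPKM in control and 302, 339.6 and 301 FPKM with LPS. In K730R it was 52.3, 61.6 and 54.6 FPKM in control and 266, 303 and 92.0 FPKM with LPS. In K810R it was 16.9, 48.4 and 53.2 FPKM in control and 322, 276 and 266 FPKM with LPS. Replicate 3 of K730R with LPS and replicate 1 of K810R control thus stood well below the other libraries of their groups. The differences were 2.30 ± 0.39, 1.78 ± 0.39 and 2.99 ± 0.39 in WT, K730R and K810R (adjusted p = 0.000181, 0.00152 and 1.62e-05, limma). Without that K730R library the difference was 2.32, and without that K810R library it was 2.48. The place of K730R below WT for Psmb10 thus rests on its low library. K810R stayed the highest in both fits, by less without its own low library.

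Psme1 encodes PA28α. Its level was 38.0, 58.1 and 62.5 FPKM in WT control and 142, 102 and 179.7 FPKM in WT with LPS. It was 43.0, 37.2 and 29.9 FPKM in K730R control and 121, 162 and 128 FPKM in K730R with LPS. It was 30.7, 30.5 and 37.9 FPKM in K810R control and 196, 146 and 146 FPKM in K810R with LPS. The control libraries of WT reached higher than those of the mutants, and the LPS libraries of the 3 genotypes overlapped. The differences were 1.40 ± 0.22, 1.88 ± 0.22 and 2.26 ± 0.22 in WT, K730R and K810R (adjusted p = 8.85e-05, 4.06e-06 and 6.44e-07, limma).

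Psme2 encodes PA28β. Its level was 31.6, 22.1 and 27.5 FPKM in WT control and 157, 146 and 107 FPKM in WT with LPS. It was 18.1, 22.2 and 20.1 FPKM in K730R control and 74.2, 93.8 and 146 FPKM in K730R with LPS. It was 23.8, 14.5 and 39.4 FPKM in K810R control and 205, 132 and 111 FPKM in K810R with LPS. The LPS libraries varied widely within K730R and K810R, yet the lowest of them, at 74.2 FPKM, lay above the highest control library, at 39.4 FPKM. The differences were 2.29 ± 0.32, 2.27 ± 0.32 and 2.54 ± 0.32 in WT, K730R and K810R (adjusted p = 2.07e-05, 2.17e-05 and 8.52e-06, limma). From last-exon events alone, the Psme2 differences were 3.33, 0.88 and 2.48 and were not called in any genotype (adjusted p = 0.0127, 0.488 and 0.0598, limma), and Psmb8 and Psmb10 were still called in each. Psmb9 had no listed last exon, and the last exon of Psme1 did not exceed 0.443 FPKM and was not tested.

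**Figure D1:**
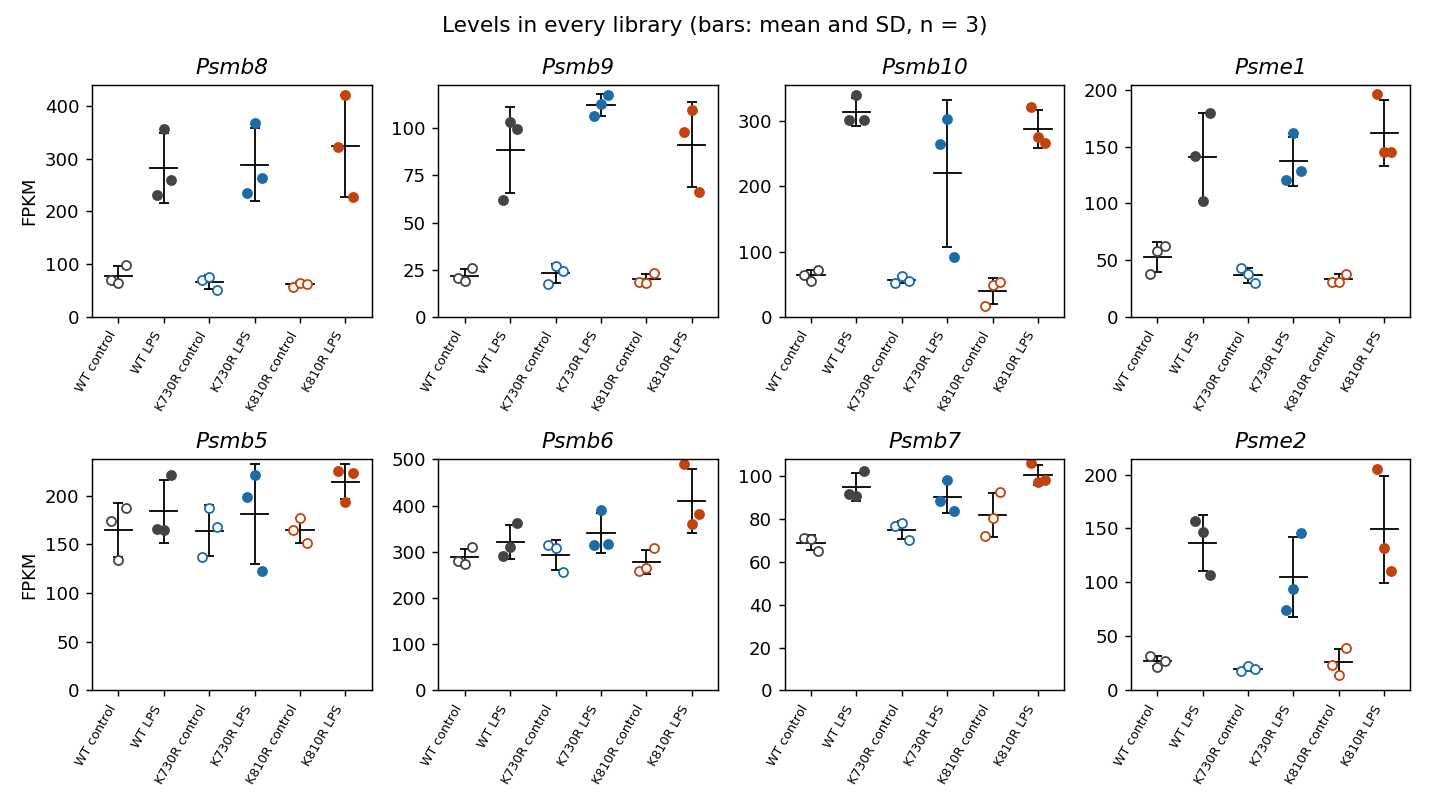
FPKM of the 5 inducible genes and of Psmb5, Psmb6 and Psmb7 in each of the 18 libraries, with open points for control, filled points for LPS, and bars for the mean and SD of 3 libraries. Psmb8, Psmb9, Psmb10, Psme1 and Psme2 are higher with LPS in every genotype without overlap, and the low points of Psmb10 are K730R LPS replicate 3 (92.0 FPKM) and K810R control replicate 1 (16.9 FPKM).

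On the same scale, the constitutive catalytic subunits differed by at most 0.55 after LPS. Psmb5, the chymotrypsin-like subunit, was 174, 134 and 187 FPKM in WT control and 166, 165 and 221 FPKM in WT with LPS. In K730R it was 137, 188 and 168 FPKM in control and 199, 221 and 123 FPKM with LPS, and in K810R 165, 177 and 151 FPKM in control and 225, 193 and 224 FPKM with LPS. Control and LPS libraries overlapped in WT and K730R but not in K810R. Its log2 differences were 0.16 ± 0.20, 0.11 ± 0.20 and 0.38 ± 0.20 in WT, K730R and K810R, and none was called (adjusted p = 0.547, 0.675 and 0.147, limma).

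Psmb6, the caspase-like subunit, had the highest mean level of the members in every group. It was 279, 274 and 309.9 FPKM in WT control and 290.3, 311 and 361 FPKM in WT with LPS. In K730R it was 314, 309 and 256 FPKM in control and 314, 391 and 317 FPKM with LPS. In K810R it was 259, 266 and 308 FPKM in control and 489.8, 359.6 and 382 FPKM with LPS. The groups overlapped in WT and K730R and not in K810R, where the log2 difference of 0.55 ± 0.14 was called (adjusted p = 0.00460, limma). In WT and K730R the differences were 0.15 ± 0.14 and 0.22 ± 0.14 (adjusted p = 0.388 and 0.213, limma).

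Psmb7, the trypsin-like subunit, was 71.1, 70.8 and 64.9 FPKM in WT control and 91.6, 90.6 and 102 FPKM in WT with LPS. In K730R it was 76.9, 78.0 and 70.1 FPKM in control and 88.5, 98.4 and 83.8 FPKM with LPS, and in K810R 72.3, 80.6 and 92.5 FPKM in control and 106, 97.4 and 98.4 FPKM with LPS. The groups did not overlap in any genotype. The log2 difference was called in WT (0.45 ± 0.10, adjusted p = 0.00211) and not in K730R or K810R (0.26 ± 0.10 and 0.30 ± 0.10, adjusted p = 0.0482 and 0.0300, limma). With median-of-ratios scaling, which divides each library by 1 size factor, Psmb6 was called in every genotype at 0.48, 0.63 and 0.83, and Psmb7 at 0.78, 0.67 and 0.57. On that scale the inducible genes differed by 1.72 to 3.25.

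The ratio of each inducible gene to the gene it replaces, both in FPKM and so per length, is given per library without a test. Psmb8 stood at 0.303 to 0.527 times Psmb5 in the 9 control libraries and at 1.02 to 2.18 times Psmb5 in the 9 LPS libraries. Psmb9 stood at 0.0560 to 0.0953 times Psmb6 in control and at 0.173 to 0.371 times Psmb6 with LPS. Psmb10 stood at 0.234 to 1.11 times Psmb7 in control and at 1.10 to 3.75 times Psmb7 with LPS. By these values Psmb8 stood above Psmb5 in every LPS library, and Psmb9 stood below Psmb6 in all 18 libraries. The levels compared were not built alike. Psmb5, placed by position, counted only events that end at an annotated transcript end. Its level may thus be too low and its ratio too high. Psmb9 had no listed last exon, so its level rests on first exons alone and its ratio may be too low. For Psmb10 the lowest LPS ratio, that of K730R replicate 3, lay just below the highest control ratio, that of WT replicate 3, and still above all K730R controls, which ran from 0.681 to 0.790. Psme1 stood at 1.22 to 3.13 times Psme3, the gene of the nuclear activator PA28γ, in control and at 4.54 to 8.37 times Psme3 with LPS. The Psme1 level also rests on its first exons, so this ratio may be too low.

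**Figure D2:**
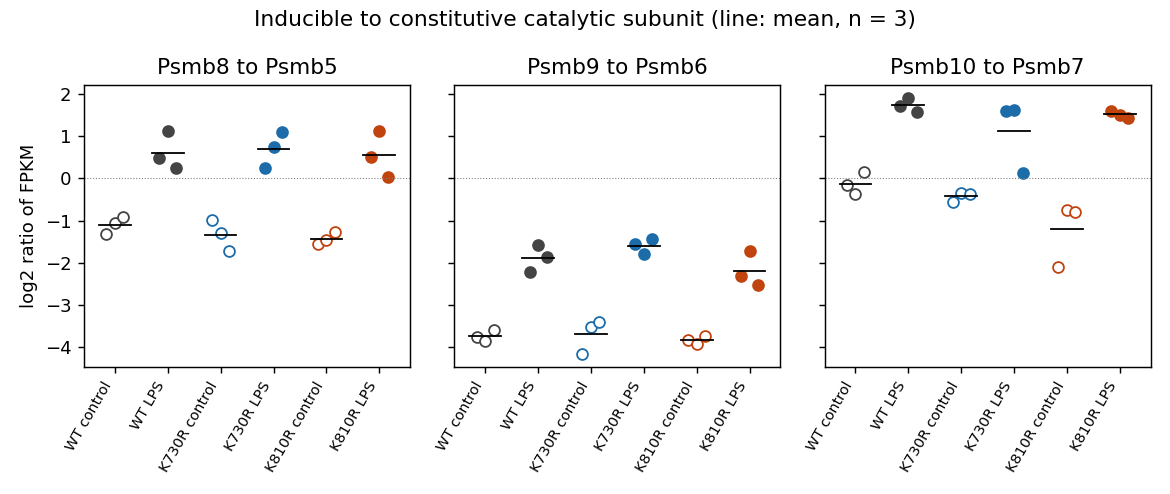
Log2 ratio of FPKM of each inducible catalytic gene to the gene it replaces, per library, with open points for control, filled points for LPS, a line at the mean of 3 libraries and a dotted line at equal levels. The Psmb8 points cross the dotted line with LPS, the Psmb9 points rise and stay below it, and the Psmb10 points are above it in all LPS libraries.

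Ordered by mean level among the 48 members with a value, Psmb8 moved from the 7th place in WT control to the third in WT with LPS, Psmb10 from the 11th to the second, Psme1 from the 16th to the 7th and Psme2 from the 30th to the 8th. Psmb9 moved from the 34th to the 16th place. The members listed under their own number took 0.625 to 0.733% of the summed FPKM of all genes in the control libraries and 0.913 to 1.08% in the LPS libraries, with no overlap.

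Over the 43 tested members, 16 were called higher and 1 lower after LPS in WT, beside 10.4% of all 9707 genes called higher and 23.9% called lower. In K730R, 11 members were called higher and 1 lower, beside 9.32% and 26.5% of all genes. In K810R, 15 were called higher and none lower, beside 9.08% and 19.7% of all genes. In these counts the 5 inducible genes take 5 places each time. Groups did not overlap for 19, 20 and 22 members with all LPS libraries above all controls in WT, K730R and K810R, beside 15.5%, 13.8% and 14.6% of all genes, and for 2, 5 and 2 members with all below, beside 39.5%, 45.0% and 37.9%. Median log2 differences of the members were 0.36, 0.24 and 0.34 in WT, K730R and K810R, beside -0.28, -0.36 and -0.26 for all genes. Dividing each library by a median-of-ratios size factor brought the median of all genes to between -0.04 and -0.01. All genes called higher and lower then numbered 1496 and 1370 in WT, 1497 and 1300 in K730R and 1196 and 1126 in K810R, in place of 1012 and 2316, 905 and 2568, and 881 and 1916. With it, 23, 24 and 23 members were called higher and 0 lower, so the number of moderate calls depends on the scale and the calls of the 5 inducible genes do not.

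In all, 10 of the 43 members were called higher in all 3 genotypes, beside 7.15% of all genes. They were the 5 inducible genes, the α-ring genes Psma5 and Psma6, the 19S genes Psmd3 and Psmd7, and Psmd10. In WT the inducible genes did not stand apart from every other member, because Psma6 (1.56) rose more than Psme1 (1.40). In K730R and K810R all 5 lay above the other tested members, of which the highest stood at 1.39 and 1.29. In at least 1 genotype 18 were called higher, beside 12.5% of all genes, Psmg4 was called lower, and 24 were called in none. Leaving out 1 library could end the calls of Psmb7, Psmc1, Psmc4, Psmd3, Psmd7, Psmd14 and Psmg4 in WT, of Psmb10, Psma3 and Psmg4 in K730R and of Psmb6, Psmc1 and Psmc4 in K810R.

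**Figure D3:**
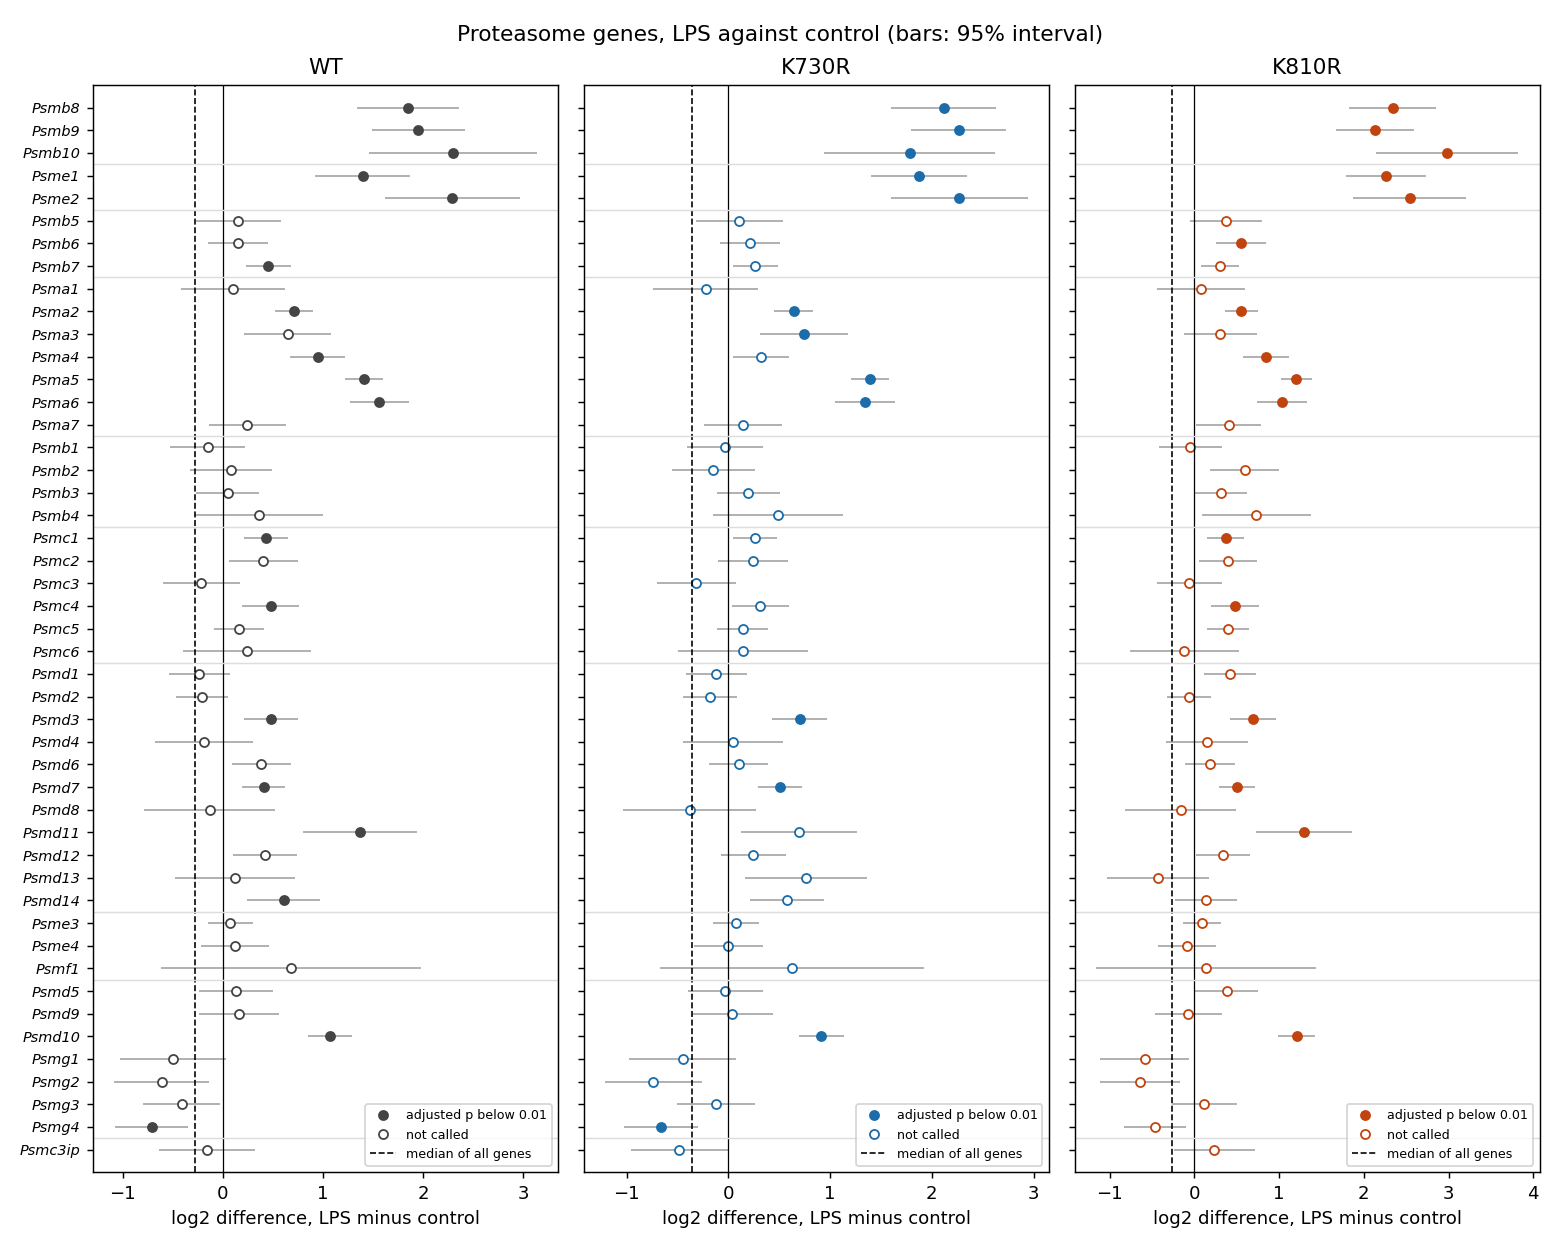
Log2 difference in FPKM + 1 between LPS and control for each tested member, with 95% intervals, by genotype, in the order of the roles and with grey lines between them. Filled points are called, the dashed line is the median of all genes, and the 5 inducible genes at the top lie between 1.40 and 2.99.

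The α-ring genes encode the outer rings that gate the core, and 3 of the 6 tested were called higher in each genotype. Psma5 was 47.1, 51.5 and 43.3 FPKM in WT control and 128, 121 and 132 FPKM in WT with LPS. In K730R it was 46.2, 46.8 and 50.1 FPKM in control and 125, 129 and 126 FPKM with LPS, and in K810R 47.3, 52.0 and 50.0 FPKM in control and 110.0, 118 and 119 FPKM with LPS. Control and LPS libraries lay far apart in each genotype, and the log2 differences were 1.41 ± 0.09, 1.39 ± 0.09 and 1.20 ± 0.09 (adjusted p = 2.71e-09, 2.84e-09 and 1.72e-08, limma).

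Psma6 was 62.4, 66.4 and 54.2 FPKM in WT control and 191, 183 and 171 FPKM in WT with LPS, and its log2 differences were 1.56 ± 0.14 in WT, 1.34 ± 0.14 in K730R and 1.04 ± 0.14 in K810R. Psma2, placed by position and listed only by a first exon, was 31.6 to 37.5 FPKM in WT control and 55.2 to 60.5 FPKM in WT with LPS, and was called in each genotype at 0.71, 0.64 and 0.55. Psma4 was called in WT (0.95) and K810R (0.84) but not in K730R (0.32, adjusted p = 0.0484, limma), where its LPS libraries held 60.6, 72.6 and 75.6 FPKM against 99.4, 96.4 and 98.7 FPKM in WT. Psma3 was called in K730R (0.75, adjusted p = 0.00647), with 0.65 in WT and 0.31 in K810R (adjusted p = 0.0160 and 0.246, limma). With median-of-ratios scaling, Psma4 in K730R (0.73) and Psma3 in WT (0.96) were called too. Psma1 and Psma7 were not called without scaling and ranged from -0.23 to 0.41, and with it Psma7 was called in K810R (0.68, adjusted p = 0.00491, limma).

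The 4 β-ring genes without a catalytic site, Psmb1, Psmb2, Psmb3 and Psmb4, were not called in any genotype without scaling. Their differences ran from -0.15 to 0.36 in WT, from -0.15 to 0.48 in K730R and from -0.05 to 0.73 in K810R. Psmb1 was the lowest in WT and K810R, and Psmb4 the highest in all 3 genotypes. In K810R the LPS libraries of Psmb2, Psmb3 and Psmb4 lay above all controls, as those of Psmb5 did, and in the other genotypes only those of Psmb4 in K730R did. With the scaling, Psmb3 was called in K730R and K810R (0.60 and 0.59) and Psmb2 in K810R (0.86).

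The 19S ATPases, Psmc1 to Psmc6, form the ring that unfolds and threads the substrate. In WT and in K810R the same 2 of 6 were called higher, Psmc1 at 0.43 and 0.37 and Psmc4 at 0.48 and 0.47, and in K730R none was called. With median-of-ratios scaling the same 4 of 6, Psmc1, Psmc2, Psmc4 and Psmc5, were called in every genotype, in K730R at 0.67, 0.65, 0.72 and 0.55. Psmc3 had the lowest difference in WT and K730R, at -0.21 and -0.31, and was not called, and in K810R the lowest was Psmc6 at -0.12. Psmc6 was 15.1 to 24.3 FPKM in 17 libraries and 52.7 FPKM in K810R control replicate 3.

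Of the 10 tested non-ATPase genes of the 19S cap, 4 were called higher in WT, 2 in K730R and 3 in K810R, and none lower. Psmd11 rose from 8.07, 15.5 and 12.5 FPKM to 20.1, 39.7 and 39.4 FPKM in WT, and the groups did not overlap. Its log2 difference was 1.37 ± 0.27 in WT and 1.29 ± 0.27 in K810R (adjusted p = 0.000603 and 0.00112), and 0.69 ± 0.27 in K730R, which was not called (adjusted p = 0.0437, limma). From last-exon events alone its differences were 1.38 in WT and 1.77 in K810R, neither called (adjusted p = 0.159 and 0.0798, limma), and -0.022 in K730R. With scaling it was called in K730R too, at 1.08. Psmd3 was called at 0.48, 0.70 and 0.69, and Psmd7 at 0.41, 0.51 and 0.50 in WT, K730R and K810R. Psmd14, the deubiquitinase of the cap, was called in WT (0.61, adjusted p = 0.00814), with 0.58 in K730R and 0.14 in K810R (adjusted p = 0.0108 and 0.546, limma). The WT call was lost in 10 of 22 alternatives, and in K730R Psmd14 was called with scaling (0.97, adjusted p = 0.000287) and from last-exon events alone (0.57, adjusted p = 0.00953, limma). The lowest were Psmd2 at -0.21 in WT, Psmd8 at -0.38 in K730R and Psmd13 at -0.43 in K810R, none of them called. Psmd13 was also the highest of the cap genes in K730R, at 0.76 (adjusted p = 0.0350, limma). With scaling Psmd13 was called in K730R (1.16, adjusted p = 0.00359, limma) and was -0.16 in K810R. Scaling also added calls of Psmd12 in WT, K730R and K810R (0.74, 0.64 and 0.60) and of Psmd6 in WT (0.70).

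Among the other activators and the inhibitor, Psme3, Psme4 (PA200) and Psmf1 (PI31) were not called in any genotype without scaling. Psme3, the third PA28 gene, differed by 0.07 to 0.09, with 95% intervals that reached at most 0.32. With scaling its differences were 0.39, 0.47 and 0.36 in WT, K730R and K810R, and it was called in WT and K730R (adjusted p = 0.00680, 0.00187 and 0.0142, limma). Psmf1 was 6.51 to 15.0 FPKM in 16 libraries and 0.681 and 0.783 FPKM in WT control replicate 1 and K730R control replicate 3. Its 95% interval ran from -0.62 to 1.98 in WT.

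The assembly chaperones went both ways. Psmd10 (gankyrin), a chaperone of the 19S base, rose from 17.9, 19.9 and 18.4 FPKM to 38.8, 41.6 and 41.1 FPKM in WT. Its log2 differences were 1.07 ± 0.10, 0.91 ± 0.10 and 1.21 ± 0.10 in WT, K730R and K810R (adjusted p = 4.25e-07, 2.40e-06 and 1.24e-07, limma). Psmd5 and Psmd9, the other base chaperones, were not called without scaling and ranged from -0.07 to 0.38, and with it Psmd5 was called in K810R (0.62, adjusted p = 0.00849, limma). Psmg4, a chaperone of the 20S core, was 27.3, 24.5 and 32.2 FPKM in WT control and 15.5, 12.6 and 23.3 FPKM in WT with LPS. It fell by 0.71 in WT and by 0.66 in K730R (adjusted p = 0.00302 and 0.00471), and its difference in K810R was -0.46 (adjusted p = 0.0418, limma). With the median-of-ratios scaling these values became -0.40, -0.27 and -0.20, none of which was called. Psmg2, another chaperone of the 20S core, had the lowest difference of the tested members in K730R and K810R, at -0.74 and -0.64, and stood at -0.61 in WT (adjusted p = 0.0124, 0.0316 and 0.0351, limma). Its LPS libraries lay below all controls in K730R and K810R and overlapped them in WT, and none of these differences was called. With the scaling they were -0.43 in K730R, -0.41 in K810R and -0.37 in WT.

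Genes that work with the proteasome did not follow the inducible genes as a group. Of 20 partner genes (receptors, shuttles, deubiquitinases, assembly factors and regulators), 18 were tested, and 1 was called higher in each genotype, namely Txnl1 in WT, Pomp in K730R and Nfe2l1 in K810R. Pomp, the chaperone that completes the core, differed by 0.49, 0.51 and -0.04 in WT, K730R and K810R, and Nfe2l1, which encodes the NRF1 factor of constitutive proteasome genes, by 0.10, 0.51 and 0.98. The call of Pomp in K730R was lost in 12 of 22 alternatives and that of Nfe2l1 in K810R in 9 of 21, and without K810R control replicate 3 the latter difference was 0.52. In WT, Pomp gained a call in 4 of 22 alternatives, among them median-of-ratios scaling (0.82, adjusted p = 0.000286, limma). Called lower were 2, 3 and 2 partners, and Ddi2, the protease that activates NRF1, was among them in each genotype at -1.24, -1.13 and -1.04. The others were Zfand2a in each genotype and Ube3c in K730R.

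Of 10 genes of class I presentation and interferon signalling, 9 were called higher in every genotype, and Erap1, a peptide-trimming enzyme, was not. Tap1, a chain of the peptide transporter that shares its upstream region with Psmb9, was 21.4 to 32.9 FPKM in WT control and 152 to 198 FPKM in WT with LPS. Its log2 differences were 2.76, 3.27 and 3.04 in WT, K730R and K810R, and those of Tap2 were 1.74, 2.08 and 1.81. Irf1, a factor that binds the interferon-stimulated response element, differed by 2.32, 2.45 and 1.64. From last-exon events alone, Irf1 was not called in K730R or K810R (0.45 and 1.08, adjusted p = 0.304 and 0.0216, limma). These lists were chosen with results known, and their counts stand beside the percentages of all genes given above.

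Neither substitution altered a member past the threshold. In control cells, 0 of 43 members were called between K730R and WT, beside 0.268% of all genes, and 0 between K810R and WT, beside 1.58%. With LPS, 0 members were called between K730R and WT, beside 0% of all genes, and 0 between K810R and WT, beside 0.134%. By limma at an unadjusted p below 0.05, 1 member (Psme1) passed for K730R control, 3 (Psme1, Psmb7 and Psmg2) for K810R control, 2 (Psma4 and Psmc1) for K730R with LPS and 10 for K810R with LPS. Of all 9707 genes, 7.70%, 14.1%, 7.69% and 21.8% passed that p in the same order.

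In K810R control all 5 inducible genes pointed lower than in WT, by a median of -0.32, and in K730R control 4 of 5 did, by a median of -0.24, beside medians of 0.07 and 0.03 for all genes. The class I presentation and interferon list pointed lower in both as well, with medians of -0.59 in K810R and -0.53 in K730R. By limma none of its 10 genes was called, and 8 in K810R and 7 in K730R passed an unadjusted p of 0.05. Psme1 was lower in each K810R control library than in any WT control library, at a log2 difference of -0.64 (95% interval -1.11 to -0.17, adjusted p = 0.167, limma). Psmb10 was also lower without overlap, at -0.82 (adjusted p = 0.370, limma), and at -0.31 without K810R control replicate 1. These 2 were the members lower without overlap, beside 6.64% of all genes, and 4 (Psma6, Psmb7, Psmc2 and Psmg2) were higher without overlap, beside 14.2%. In K730R control, Psme1 differed from WT by -0.50 (95% interval -0.97 to -0.03, adjusted p = 0.612, limma), and the libraries overlapped. There, 2 symbols (Psmd2 and Psmc3ip) were higher without overlap and 0 lower, beside 8.91% and 7.45% of all genes. Markers of mesothelium and fibroblasts summed to 99.1 to 224 FPKM in K810R control, 50.9 to 59.1 FPKM in K730R control and 26.1 to 43.0 FPKM in WT control, and 3 of 5 tested (Col1a1, Col1a2 and Dcn) were called higher in K810R than in WT. Markers of intestinal epithelium summed to 22.0 to 73.9 FPKM in K810R control, 13.7 to 47.0 FPKM in K730R control and 2.44 to 3.04 FPKM in WT control, where Fabp1, Fabp2, Vil1, Epcam, Cdh17 and Krt20 had no row, and 2 of 5 tested were called. The neutrophil list had a median of 0.57 in K810R control against WT. By limma 4 of 4 tested markers passed an unadjusted p of 0.05 there, and none was called. The part of these cells in the lower Psme1 and Psmb10 values was not tested.

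With LPS the inducible genes of K810R differed from WT by -0.13 to 0.22, and those of K730R by -0.68 to 0.37. With scaling these ranges were -0.28 to 0.07 and -0.63 to 0.43. The 95% intervals ran from -0.97 to 0.77 in K810R and from -1.52 to 0.84 in K730R, with Psmb10 giving the widest. For Psmb8 the interval was -0.48 to 0.54 in K730R and -0.34 to 0.69 in K810R, so a change by 2 times in either direction lay outside it for this gene. For Psmb10 and Psme2 in K730R a decrease by 2 times lay inside the interval.

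Outside the inducible genes, Psma4 was lower in each K730R LPS library than in any WT LPS library, at -0.50 (adjusted p = 0.486, limma). It was among 6 members lower there without overlap, beside 7.54% of all genes, the others being Psmc1, Psmc6, Psmd6, Psmd12 and Psmd14. In K810R with LPS the 6 tested assembly chaperones all pointed higher than in WT, with a median of 0.39 beside 0.11 for all genes. With scaling 5 of the 6 did, Psmd10 was at -0.10, and the median was 0.25 beside -0.02 for all genes. In the same comparison without scaling, the neutrophil list had a median of 0.59 with 1 of 4 tested markers called higher. The mast cell list had a median of -0.64 with none called. The part of these cells was not tested. Psmg3 was 11.1, 8.75 and 10.7 FPKM in K810R and 5.15, 5.14 and 8.62 FPKM in WT with LPS, a log2 difference of 0.64 that was not called (adjusted p = 0.0670, limma). Groups did not overlap for 6 members that were higher and for 2, Psma4 and Psma5, that were lower, beside 17.4% and 7.89% of all genes. Replicate 3 of WT with LPS was the highest of its group for Psmg2, Psmg3 and Psmg4, and without it Psmg2 and Psmg3 were called between K810R and WT (0.86 for each, adjusted p = 0.00715, limma).

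The response to LPS itself was compared between genotypes through the interaction term. No member was called, by limma at an adjusted p below 0.01, beside 0.0412% of all genes for K730R and 0.124% for K810R, and 1 member (Psma4, at -0.63) and 2 members (Psme1 and Psma6, at 0.86 and -0.52) passed an unadjusted p of 0.05, beside 7.02% and 13.2% of all genes. The responses of the 5 inducible genes in K810R exceeded those in WT by 0.18 to 0.86, and the highest excess was that of Psme1 (95% interval 0.19 to 1.53, adjusted p = 0.260, limma). Leaving out 1 library turned the K810R difference of Psmb9 to -0.054 (without WT LPS replicate 1) and that of Psme2 to -0.095 (without K810R control replicate 2), and last-exon events alone gave -0.86 for Psme2. The K810R difference of Psmb10 was 0.69 and became 0.18 without K810R control replicate 1. In K730R the responses differed from WT by -0.51 to 0.48, and last-exon events alone moved that of Psme2 from -0.02 to -2.45, which was not called. The K730R difference of Psmb10 was -0.51 and became 0.02 without K730R LPS replicate 3. All comparisons with WT share its libraries, so the values for both mutants are not independent. Marker lists moved in the interaction as well. In K810R 5 of 5 tested intestinal epithelium markers passed an unadjusted p of 0.05 by limma (median -2.85). Of the mesothelium and fibroblast markers 4 of 5 did (median -1.41). In K730R 3 of 5 of each list did (medians -1.65 and -1.42). None was called, and their part in these responses was not tested.

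**Figure D4:**
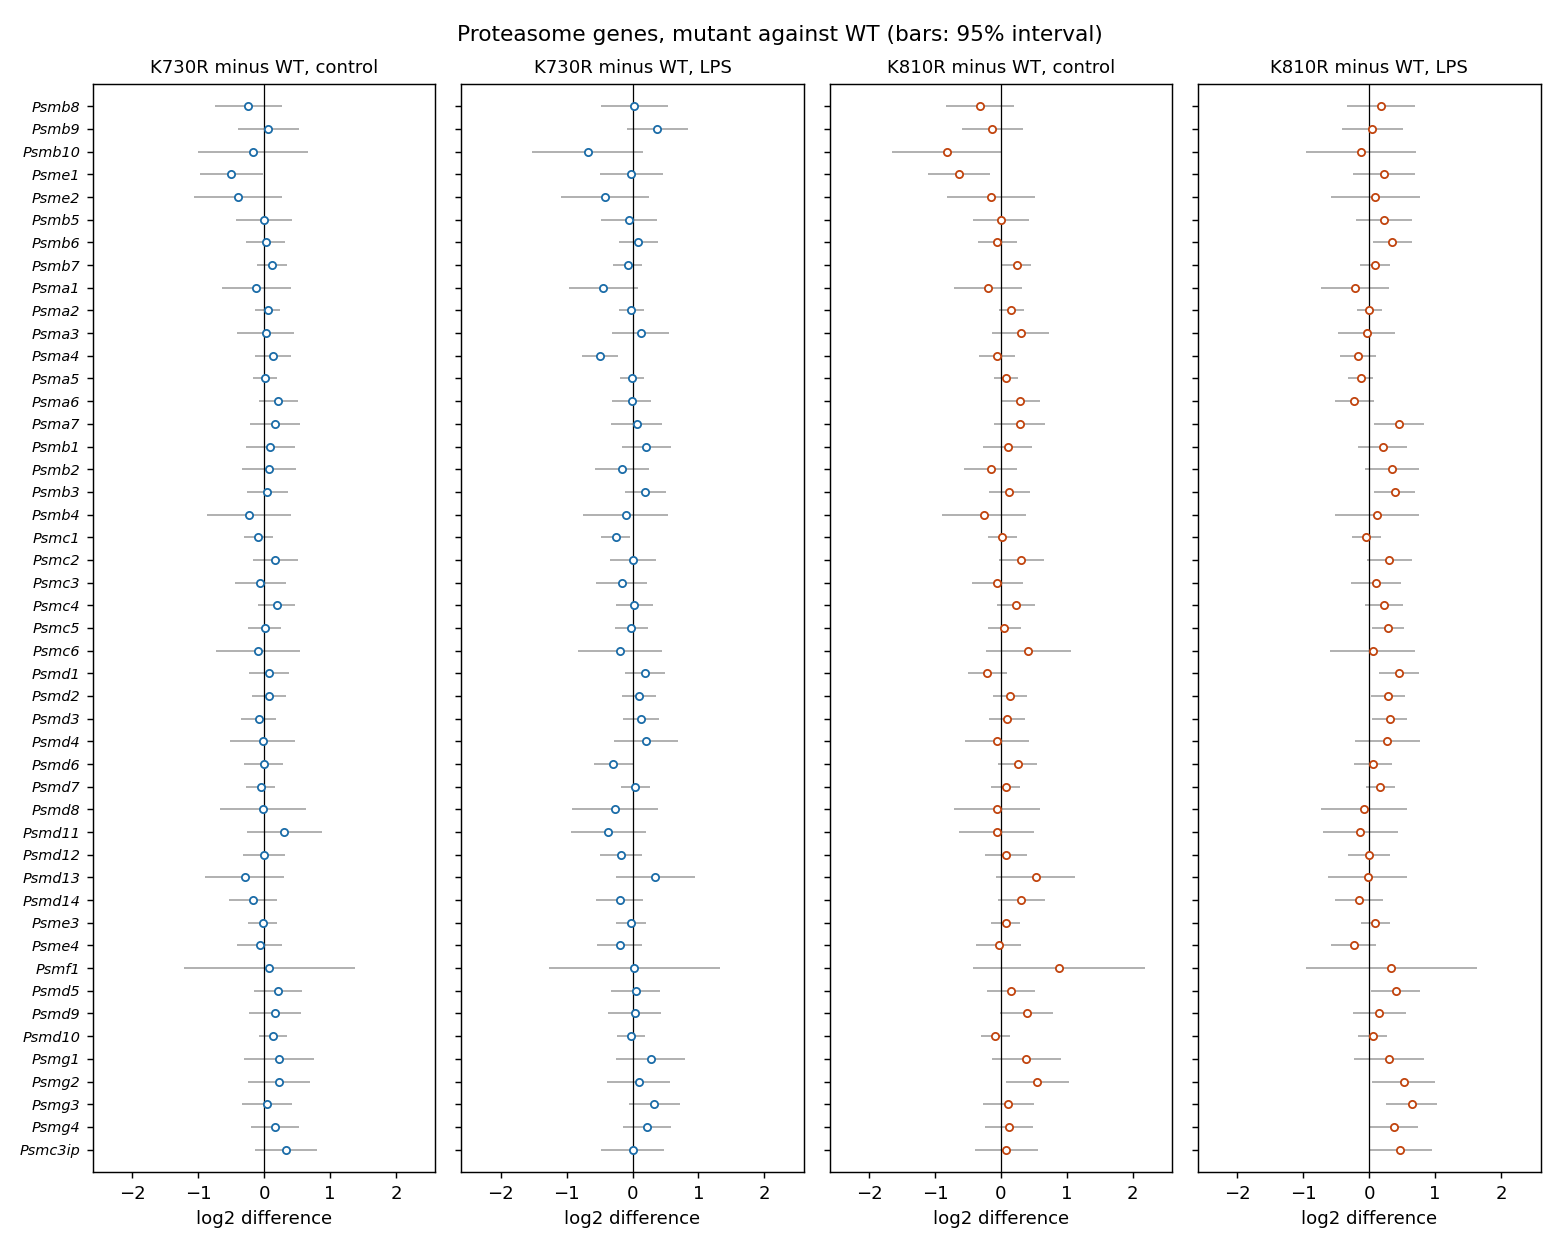
Log2 difference in FPKM + 1 between each mutant and WT for each tested member, in control and with LPS, with 95% intervals. No point is called, and in K810R control the points of the 5 inducible genes at the top lie between -0.82 and -0.13.

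The files also divide each gene between its first exons, and these shares varied between libraries of the same group. In Psme1 the downstream first exon held 73.2, 23.8 and 96.5% of the first-exon FPKM in WT control and 70.5, 67.6 and 21.2% in WT with LPS. In K730R it held 15.2 to 28.4% in control and 14.6 to 34.3% with LPS, and in K810R 15.7 to 51.3% in control and 10.3 to 36.7% with LPS. The share was thus higher in most WT libraries, while WT control replicate 2 and WT LPS replicate 3 fell among the mutants.

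In Psmb8 a short upstream first exon, at chr17:34197721-34197761, held 77.2% in K730R LPS replicate 2, 56.3% in K810R LPS replicate 1 and 90.7% in K810R LPS replicate 2. The files of the other 15 libraries, including all those of WT and all controls, hold no row for this exon, and a missing row was counted as 0. In Psme2 an upstream first exon, at chr14:55591022-55591512, held 52.6 and 59.6% in K810R LPS replicates 1 and 2 and at most 29.1% elsewhere. Psmb9 and Psmb10 each used the same main first exon in all libraries, at 96.7% and 82.9% or more. Shares that swing within a group are estimates of transcript events without a depth, and they were not tested.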

How the data were processed

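Per the labels, total RNA of 18 macrophage libraries was sequenced on an Illumina platform by a service company. The authors deposited FPKM values per transcript event (20 kinds, such as first and last exons), normalized for length and library size. The aligner and event program are not given in the sources used here, and the submitters' processing notes name hg18, a human build, while the coordinates match mouse GRCm38.

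From these values, first-exon FPKM and last-exon FPKM were each summed over the events on a gene (GENCODE M21), and the higher sum was its level, so a gene whose ends are listed in part has a partial value. A missing event counted as 0. The 9707 genes reaching 1 FPKM in 3 or more libraries were tested on log2(FPKM + 1) with limma 3.58.1 in R 4.3.3 (all 6 groups in 1 fit, intensity trend, Benjamini-Hochberg adjustment, threshold 0.01), after a check on simulated data. Python 3.11.15 and pandas 2.3.3 were used. The members, the lists and the alternatives were chosen with earlier results of these data known. Full values were given for the 5 inducible and 3 constitutive catalytic genes, and elsewhere for called and extreme members. Added after seeing the data were values in full for Psma5, Psma6, Psmd10, Psmd11, Psmg3 and Psmg4, the promoter search and the first-exon shares. Same-numbered libraries did not deviate together, so the numbers were not used as pairs. Values of 1 gene of the class I presentation and interferon list are not reported here.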

Additional observations from a re-analysis of the deposited data

How the results depend on the processing

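In the alternatives run, the LPS differences of Psmb8, Psmb9 and Psme1 kept direction and call in every genotype, except that Psmb9 and Psme1 were not tested with last-exon events alone. Psmb10 lost its call in 4 alternatives in K730R and in 1 in WT, and Psme2 lost it in each genotype with last-exon events alone. Calls near the threshold moved more, and depth limits cannot be given for values without counts. The causes of the changes below were not tested, except that leaving out libraries leaves fewer samples and that genes without a tested last exon cannot be called from it.

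With last-exon events alone, 10, 7 and 7 members were called higher in WT, K730R and K810R and 2 and 2 lower in WT and K730R. Fewer members were tested there, and Psmb9 and Psme1, called in each genotype in the main fit, could not be called. With only the groups compared in the fit, 9 were higher and 0 lower in WT and 1 was lower in K810R. Median-of-ratios scaling gave 24 higher in K730R, 23 in K810R and 0 lower in WT and K730R. At an adjusted p below 0.05, 17 were higher in K730R, and 2 were lower in each genotype. Library weights gave 2 lower in WT, 2 lower in K730R and 1 member, Psmg3, called between K810R and WT with LPS.

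Leaving out 1 library at a time gave 11 to 14 members higher in WT, 10 to 12 in K730R and 12 to 16 in K810R. Lower calls ranged from 0 to 3 in WT, the 3 (Psmg2, Psmg3 and Psmg4) without WT LPS replicate 3, and from 0 to 1 in K730R. Calls between K810R and WT with LPS ranged from 0 to 2. Leaving out a replicate number from all groups, an alternative added after seeing the data like the placing by position, gave 10 higher in WT each time, 7 to 10 in K730R and 9 to 16 in K810R, 0 to 2 lower in WT and 0 to 1 in K730R, and 0 to 1 called between K810R and WT with LPS.

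Some uncalled differences changed sign. With scaling, Pomp in K810R after LPS became 0.23 and the Psme2 response of K730R against WT became 0.057. With library weights, Pomp in K810R became 0.063. With last-exon events alone, Psmd11 in K730R became -0.022 and the Psme2 responses against WT became -0.86 in K810R and, without a change of sign, -2.45 in K730R. Over the fits without 1 library or 1 replicate number, the lowest and highest differences were as follows. After LPS, leaving out 1 library gave -0.00083 to 0.16 for Nfe2l1 in WT and -0.22 to 0.12 for Pomp in K810R. For responses against WT it gave -0.83 to 0.024 for Psmb10 and -0.29 to 0.20 for Psme2 in K730R, and -0.054 to 0.39 for Psmb9 and -0.095 to 0.60 for Psme2 in K810R. Without replicate 1 of all groups, the K730R responses were -0.024 for Psmb9 and 0.11 for Psme2, and the K810R responses -0.13 for Psmb9 and -0.019 for Psme2. Without replicate 2 the K730R response of Psme2 was 0.29. Without replicate 3 the LPS differences were -0.0072 for Nfe2l1 in WT, -0.017 for Psmd14 and 0.091 for Pomp in K810R, and the K730R response of Psmb8 was -0.072.

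The replicate number as a block gave 14, 11 and 13 members higher and 1, 1 and 0 lower in WT, K730R and K810R, and 0 in each comparison of genotypes. Correlations of deviations between same-numbered libraries ran from -0.32 to 0.09, so the numbers were not used as pairs. With 3 libraries a group, such values cannot show whether same-numbered libraries share an animal or harvest.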
